A study of Mus musculus with 11 samples.

Results

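Mitosis and spindle genes, 46 in number, were followed in mouse monocyte cultures. The members were chosen by name as genes of mitotic entry, the spindle checkpoint, the chromosomal passenger complex, the kinetochore, the spindle, cytokinesis and chromosome structure, and they are 46 of the 21860 genes in the deposited table. A member was to be dropped if it stood under 10 normalized counts in more than 9 of the 11 samples, and none was. Cdc25c, the member with the lowest mean, was under 10 in 1 sample.

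Bulk RNA sequencing was done on CD11b-low EpCAM+ cells sorted from monocyte cultures started from bone marrow. Langerhans cells, the phagocytes resident in the epidermis, carry the adhesion molecule EpCAM, and the study used such cultures as a model of Langerhans cells derived from monocytes. All 11 samples received GM-CSF at 20 ng/ml. Of these, 10 also received TGFβ (5 ng/ml) with IL-34, which was used at 8 µg/ml. Jagged-1 (Jag1), a ligand of Notch receptors, was presented by OP9 cells, a mouse bone marrow stromal line. FICZ, whose dose is not in the labels, is a ligand of the aryl hydrocarbon receptor (Ahr) that the study describes as an agonist, whereas the deposited design text has "antagonist". The groups, all harvested at day 6, were TGFβ/IL-34/Jag1/FICZ and TGFβ/IL-34/Jag1 with 3 samples each, TGFβ/IL-34/FICZ as well as TGFβ/IL-34 with 2 each, and a single sample of Jag1 only, which had GM-CSF and Jag1 but neither TGFβ nor IL-34. The labels name OP9 cells for every sample, and give a lower plating density for monocytes on OP9 cells than for monocytes alone. The stromal collagen gene Col1a1 was at 3.84 and 0 normalized counts in TGFβ/IL-34 and 0 and 0 in TGFβ/IL-34/FICZ, against 191, 369 and 84.1 in TGFβ/IL-34/Jag1. In the comparisons with and without Jag1, the ligand, the stromal cells and the plating density therefore cannot be told apart.

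Epcam, which the sort selected for, was at 5050 and 4706 in TGFβ/IL-34, 5943 and 3952 in TGFβ/IL-34/FICZ, 7569, 11625 and 14377 in TGFβ/IL-34/Jag1, 7594, 6086 and 9133 in TGFβ/IL-34/Jag1/FICZ and 657 in Jag1 only. Column totals of the normalized counts ran from 21310445 to 27845052, the highest in TGFβ/IL-34/FICZ replicate 1. That library also differed from its partner in the members. Of the 46 members, 3 were over 2-fold higher and 9 over 2-fold lower in it than in replicate 2, and Smc2, a condensin ATPase, measured 167 and 1273. No share of all tested genes is given for these 2 counts, so they do not set the members apart from other genes. By the flow cell codes in the column headers, this library shared a flow cell only with TGFβ/IL-34/Jag1/FICZ replicate 1. Its partner carried another flow cell code and another experiment code. The part of either in the difference was not tested. The tests, the order of the groups and the counts of groups that did not overlap were also computed without TGFβ/IL-34/FICZ replicate 1. The labels do not say whether replicates came from separate animals, so p-values measure the spread between these samples only.

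In mitosis, cyclin B bound to CDK1 drives entry, the spindle attaches to chromosomes at kinetochores, and the anaphase-promoting complex ends the phase by marking cyclin B and securin for destruction. Transcripts of most of these genes are made late in the cell cycle and are low in resting cells. Monocytes divide little, and Langerhans cells renew themselves in the epidermis at a low rate. In bulk samples, fewer dividing cells and less of these RNAs per cell cannot be told apart.

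The members were lowest in TGFβ/IL-34/Jag1 and highest in TGFβ/IL-34/Jag1/FICZ. Among the 4 groups with TGFβ and IL-34, TGFβ/IL-34/Jag1 had the lowest mean log2 level for 42 of 46 members (26.9% of all tested genes) and TGFβ/IL-34/Jag1/FICZ the highest for 38 (24.4%). For 32 members the full order was TGFβ/IL-34/Jag1, TGFβ/IL-34, TGFβ/IL-34/FICZ, TGFβ/IL-34/Jag1/FICZ, from low to high, as for 6.61% of all tested genes. Without TGFβ/IL-34/FICZ replicate 1 these numbers were 43, 40 and 40 members and 32.7%, 26.4% and 9.73% of all tested genes. The mean of log2(normalized count + 1) over the members was 7.32 ± 0.42 (SD, n = 3) in TGFβ/IL-34/Jag1, 8.48 ± 0.19 (SD, n = 2) in TGFβ/IL-34, 8.89 ± 0.21 (SD, n = 2) in TGFβ/IL-34/FICZ and 9.37 ± 0.01 (SD, n = 3) in TGFβ/IL-34/Jag1/FICZ. The Jag1 only sample stood at 7.82. The summed normalized count of the members in TGFβ/IL-34/Jag1/FICZ was 2.51 times that in TGFβ/IL-34/Jag1, or 3.32 times without Cenpa, the gene with the largest share of the sum in TGFβ/IL-34/Jag1. All 3 TGFβ/IL-34/Jag1 samples lay below the 7 other samples with TGFβ and IL-34 for 34 of 46 members, where 9.15% of all tested genes did so, and below the 6 left without TGFβ/IL-34/FICZ replicate 1 for 36 members and 12.9% of all tested genes. TGFβ/IL-34 and TGFβ/IL-34/FICZ are neighbors in this order whose difference passed the test for no member, and the same held for TGFβ/IL-34/FICZ and TGFβ/IL-34/Jag1/FICZ. The 3 samples of TGFβ/IL-34/Jag1/FICZ lay close together, with no member differing over 2-fold between its highest and lowest sample, whereas 24 members did so in TGFβ/IL-34/Jag1. Replicate 1 of TGFβ/IL-34/Jag1 gave the lowest value of its group for 31 members, as the map of members by sample shows. No share of all tested genes is given for these counts within a group, so they do not set the members apart from other genes.

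**Figure D1:**
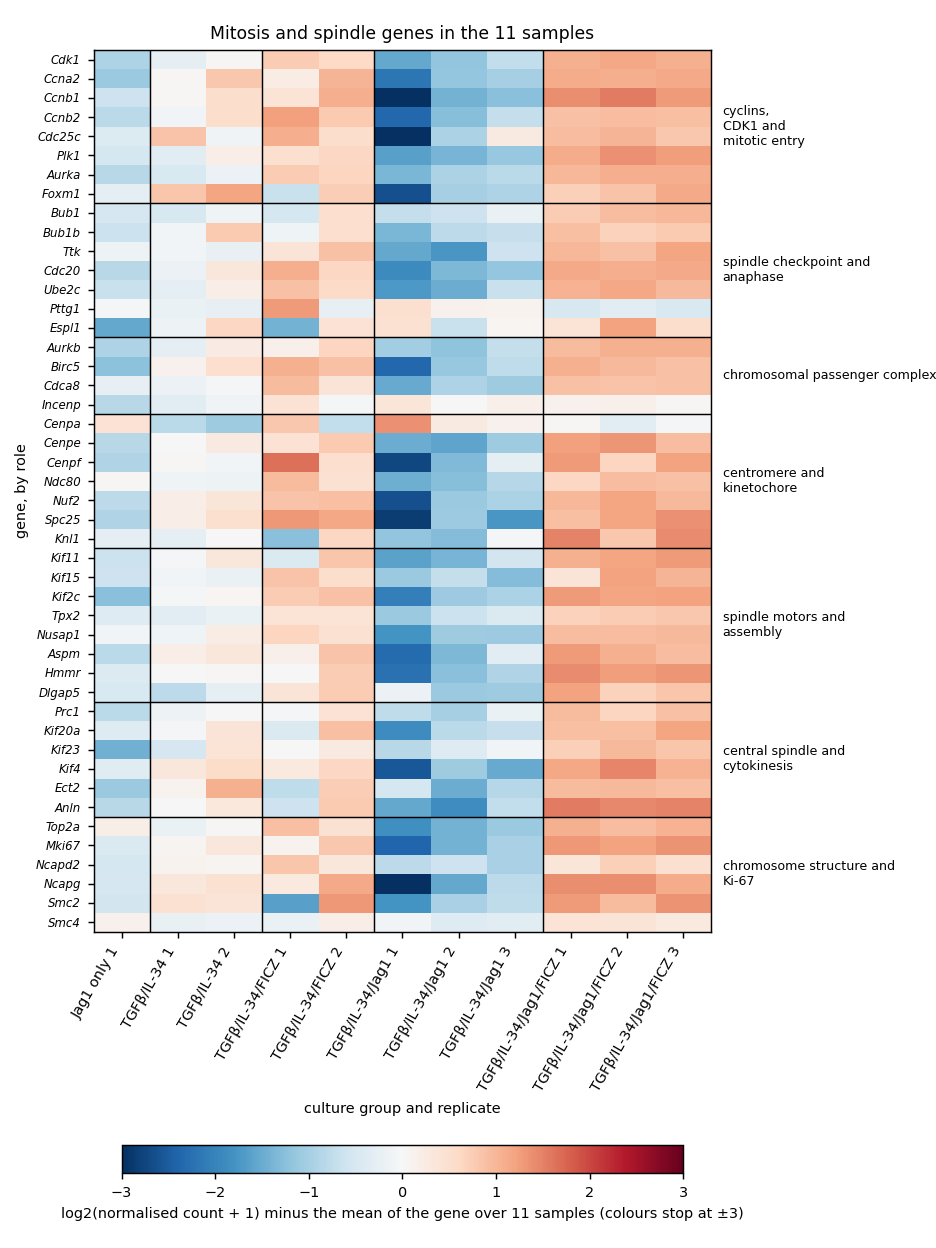
Level of each of the 46 members (rows, by role) in the 11 samples (columns, by culture group and replicate), as log2(normalized count + 1) minus the mean of that gene over all samples. Blue marks values below and red above the mean: TGFβ/IL-34/Jag1 is blue and TGFβ/IL-34/Jag1/FICZ red in most rows, and Cenpa, Pttg1, Incenp and Espl1 depart from this.

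The sequence around the start sites of the members was also examined. The members were chosen by name as mitotic genes, so how often an element occurs among them does not depend on these cultures. A RefSeq table of promoters (build GRCm38.p6, windows of 300 bases around the start site) held 37 of the 46 members in 39 windows. Ccna2, Cdc25c, Foxm1, Aurkb, Incenp, Tpx2, Dlgap5, Kif20a and Smc4 were not in it. Late cell cycle genes are known for the cell cycle genes homology region, bound by the MuvB complex, and for CCAAT boxes, bound by NF-Y. The letters TTTGAA or the variant TTCGAA on either strand, the core of the first element, were found in 33 of 39 member windows (84.6%) and in 19.2% of all 32851 windows. CCAAT on either strand was found in 30 member windows (76.9%) and in 37.4% of all windows. Both were present in 28 member windows (71.8%), against 7.52% of all. Per gene, 26 members had both, Anln, Kif15, Kif2c, Knl1 and Ndc80 had the first only, Ccnb1 and Cenpe had CCAAT only, and Birc5, Nuf2, Nusap1 and Pttg1 had neither. A match is a description of these letters in this window, which includes bases after the start site. For several members, among them Aurka, Bub1 and Plk1, the only match to the first element lay after the start site.

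The stretch before the start site is printed 5′ to 3′ for 7 members, with both elements in capitals: TTTGAA or its reverse complement TTCAAA, and CCAAT or its reverse complement ATTGG. Cdk1 (chr10:69352913-69353022, minus strand), Cdc20 (chr4:118437344-118437453, minus) and Top2a (chr11:99024190-99024299, minus) show both elements in members that rose with FICZ. Ccnb1 (chr13:100786487-100786596, minus) has CCAAT alone and was the member with the largest rise. Espl1 (chr15:102296183-102296292, plus), Pttg1 (chr11:43425982-43426091, minus) and Cenpa (chr5:30666776-30666885, plus) are members that did not pass the test of that comparison. Pttg1 had neither element, but Birc5, Nuf2 and Nusap1, which also had neither, rose 5.25-, 6.11- and 4.79-fold in it. The 7 are examples and do not show how the elements go with the rise over all members.
Cdk1: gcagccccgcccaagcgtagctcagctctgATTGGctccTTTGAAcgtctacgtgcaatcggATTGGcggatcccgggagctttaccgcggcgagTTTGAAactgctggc
Cdc20: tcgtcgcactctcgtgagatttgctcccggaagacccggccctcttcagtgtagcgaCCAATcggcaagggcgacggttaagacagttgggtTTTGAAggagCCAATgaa
Top2a: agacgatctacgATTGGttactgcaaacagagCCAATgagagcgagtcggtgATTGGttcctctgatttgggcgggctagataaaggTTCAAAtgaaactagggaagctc
Ccnb1: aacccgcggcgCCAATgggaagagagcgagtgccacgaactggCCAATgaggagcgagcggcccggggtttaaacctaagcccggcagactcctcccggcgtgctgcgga
Espl1: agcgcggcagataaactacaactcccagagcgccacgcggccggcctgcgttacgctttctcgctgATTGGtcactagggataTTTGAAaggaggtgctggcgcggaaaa
Pttg1: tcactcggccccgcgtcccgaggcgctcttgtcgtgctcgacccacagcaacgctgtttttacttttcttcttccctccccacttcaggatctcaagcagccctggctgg
Cenpa: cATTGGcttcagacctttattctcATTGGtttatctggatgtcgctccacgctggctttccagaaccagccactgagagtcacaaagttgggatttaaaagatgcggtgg
The TTTGAA or TTCAAA nearest the start site began 33 and 65 bases after a CCAAT or ATTGG in Cdk1, 35 in Cdc20, and 35, 55 and 75 in Top2a. A TTTGAA further upstream in Cdk1 began 9 bases after an ATTGG. In Espl1, which did not pass, the distance was 17 bases. The TTTGAA of Cenpa lay after the start site and is not in the stretch shown.

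Most of these genes were higher with FICZ in cultures with Jag1. Of the 46 members, 41 rose and none fell when TGFβ/IL-34/Jag1/FICZ was compared with TGFβ/IL-34/Jag1, at an adjusted p under 0.05 in limma's test over 13095 genes. In that comparison 10.9% of all tested genes rose and 6.71% fell. The median log2 fold change of the members was 2.34, beside −0.008 over all tested genes, and ran from −0.71 to 3.30. All 3 FICZ samples were above all 3 others for 42 of 46 members, a pattern shown by 23.6% of all tested genes. Within each of the 3 experiment codes that pair the samples, 42, 44 and 43 members were higher with FICZ, with medians of 2.72, 2.15 and 1.82. Counts within a code, here and below, compare single samples, and no share of all tested genes is given for them. Leaving out any single library of the comparison kept 38 to 41 members as higher, and a fit with the replicate number as a block gave 41.

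Members that drive entry into mitosis rose with FICZ in 7 of 8 cases, by a median of 2.44. Ccnb1 (cyclin B1, chr13:100915153-100923116 in GRCm39) measured 40.8, 123 and 138 normalized counts in TGFβ/IL-34/Jag1, 872, 978 and 804 in TGFβ/IL-34/Jag1/FICZ, 341 and 479 in TGFβ/IL-34, 444 and 706 in TGFβ/IL-34/FICZ and 215 in Jag1 only, in replicate order. Its values with both Jag1 and FICZ were above, and those with Jag1 but no FICZ below, all others, and the means of 101 ± 52.4 and 884 ± 87.6 (SD, n = 3 each) lay 9.84-fold apart on the log scale of the test (log2 fold change 3.30, SE 0.415, adjusted p = 0.000506). Its kinase Cdk1 (chr10:69170976-69236595) stood at 320 and 407 in TGFβ/IL-34, 666 and 596 after FICZ, 136, 174 and 235 after Jag1, 826, 890 and 824 after both and 207 in Jag1 only (log2 fold change 2.25, SE 0.224, adjusted p = 0.000142). Ccna2 (cyclin A2) measured 110, 223 and 247 without and 1073, 1066 and 1085 with FICZ in the Jag1 cultures, 509 and 875 without and 584 and 1010 with FICZ in cultures lacking Jag1, and 228 in Jag1 only (log2 fold change 2.55, SE 0.338, adjusted p = 0.000656). The groups with and without FICZ did not overlap for any of the 3 in the Jag1 cultures. For each of the 3 genes, the TGFβ/IL-34 and TGFβ/IL-34/FICZ samples lay between these groups.

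Plk1, the polo-like kinase that activates CDK1 and matures centrosomes (chr7:121758646-121769108), was at 111, 132 and 156 without and 746, 892 and 822 with FICZ in the Jag1 cultures (log2 fold change 2.62, SE 0.214, adjusted p = 4.74e-05). It measured 278 and 401 in TGFβ/IL-34, 484 and 529 in TGFβ/IL-34/FICZ and 239 in Jag1 only. Its groups formed steps that did not overlap. Foxm1, a transcription factor of late cell cycle genes (chr6:128339518-128353147), rose from 27.9, 88.7 and 93.3 to 294, 320 and 388 (log2 fold change 2.41, SE 0.482, adjusted p = 0.00631). Unlike most members it was as high in TGFβ/IL-34 (319 and 404) as with both signals, and its TGFβ/IL-34/FICZ values of 112 and 296 were far apart, with 147 in Jag1 only. Cdc25c, the phosphatase that activates CDK1, was at 1.84, 22.6 and 53.2 without and 84.5, 90.4 and 78 with FICZ, and its difference of 2.47 (SE 0.87) missed the threshold (adjusted p = 0.0801). Its value of 1.84 in replicate 1 was far below the other samples.

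**Figure D2:**
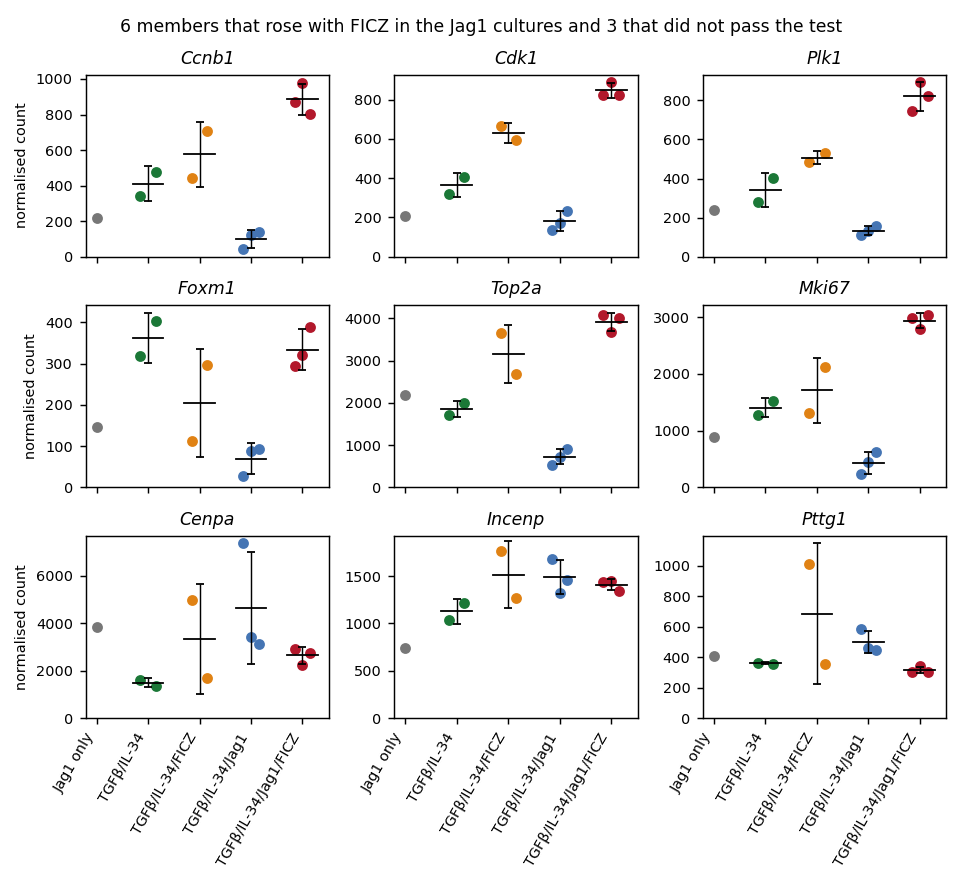
Normalized counts (linear axes from 0) of 9 members in each sample, by culture group, with the mean (bar) and SD (whiskers) where a group has more than 1 sample. Ccnb1, Cdk1, Plk1, Foxm1, Top2a and Mki67 are lowest in TGFβ/IL-34/Jag1, and Cenpa, Incenp and Pttg1 are not.

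Of the spindle checkpoint and anaphase genes, 5 of 7 rose with FICZ in the Jag1 cultures. Bub1b, a checkpoint kinase-like protein that holds back anaphase, stood at 506 and 928 in TGFβ/IL-34, 493 and 762 after FICZ, 206, 308 and 333 after Jag1, 1003, 872 and 925 after both and 344 in Jag1 only (log2 fold change 1.75, SE 0.28, adjusted p = 0.00189). Ube2c, the ubiquitin-conjugating enzyme of the anaphase-promoting complex, measured 145, 173 and 306 without and 997, 1076 and 956 with FICZ in the Jag1 cultures, 395 and 554 without and 897 and 717 with FICZ in cultures lacking Jag1, and 304 in Jag1 only (log2 fold change 2.35, SE 0.275, adjusted p = 0.000347). Cdc20, its activator, rose 6.01-fold (adjusted p = 0.000106). The ranges of these 3 genes with and without FICZ did not overlap in the Jag1 cultures. Pttg1 (securin), which inhibits separase, was at 583, 461 and 450 without and 303, 340 and 304 with FICZ (log2 fold change −0.65, SE 0.323, adjusted p = 0.215), compared with 364 and 355 in TGFβ/IL-34, 1013 and 357 in TGFβ/IL-34/FICZ and 409 in Jag1 only. Every Pttg1 value with Jag1 and FICZ was below every value with Jag1 alone, the opposite of most members, and the gene was called lower in 3 alternative fits (the groups of the comparison only, sample weights, and without TGFβ/IL-34/FICZ replicate 1). Espl1 (separase) was at 499, 228 and 379 without and 484, 838 and 524 with FICZ, groups that overlapped (log2 fold change 0.77, SE 0.477, adjusted p = 0.331).

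Of the chromosomal passenger complex, Aurkb, Birc5 and Cdca8 rose and Incenp did not pass the test. Cdca8 (borealin) stood at 378 and 409 in TGFβ/IL-34, 828 and 562 after FICZ, 150, 224 and 202 after Jag1, 785, 778 and 789 after both and 362 in Jag1 only (log2 fold change 2.05, SE 0.215, adjusted p = 0.000192). Incenp, the scaffold that binds and activates Aurora B, measured 1682, 1325 and 1455 without and 1439, 1448 and 1344 with FICZ in the Jag1 cultures, 1035 and 1218 without and 1764 and 1266 with FICZ in cultures lacking Jag1, and 736 in Jag1 only (log2 fold change −0.07, SE 0.17, adjusted p = 0.843). The Incenp ranges with and without FICZ overlapped, and the sign of its small difference turned when samples were scaled to equal totals or when TGFβ/IL-34/Jag1 replicate 1 was left out. Aurkb, the kinase of the complex, rose 4.04-fold and Birc5 (survivin) 5.25-fold (adjusted p = 0.000264 and 0.00132).

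At the centromere and kinetochore, 6 of 7 members rose and Cenpa did not pass the test. Cenpe, a kinetochore motor that aligns chromosomes, stood at 293 and 351 in TGFβ/IL-34, 396 and 505 after FICZ, 103, 96.6 and 139 after Jag1, 686, 730 and 560 after both and 163 in Jag1 only (log2 fold change 2.54, SE 0.224, adjusted p = 7.3e-05). Cenpa, the histone H3 variant that marks centromeres (chr5:30824121-30842921), measured 7371, 3438 and 3137 without and 2937, 2244 and 2753 with FICZ in the Jag1 cultures, 1622 and 1360 without and 4999 and 1713 with FICZ in cultures lacking Jag1, and 3835 in Jag1 only (log2 fold change −0.71, SE 0.40, adjusted p = 0.279). It was lowest in TGFβ/IL-34, and its highest value, in TGFβ/IL-34/Jag1 replicate 1, belonged to the library with the lowest value of its group for 31 of the 46 members. No share of all tested genes is given for the 31. Spc25 and Nuf2, subunits of the NDC80 complex that binds microtubules, rose 8.29- and 6.11-fold (adjusted p = 0.000615 and 0.00136). Annotated exons of Spc25 share 52.5% of their bases with Nostrin on the other strand, and whether counting used strand is not given in the sources used here. The same applies to Kif20a with Cdc23 (54.8%), Aurka with Fam210b (25.2%) and Ncapg with Lcorl (25%).

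All 8 spindle motor and assembly genes and all 6 central spindle and cytokinesis genes rose with FICZ in the Jag1 cultures. Tpx2, which nucleates spindle microtubules, stood at 577 and 625 in TGFβ/IL-34, 960 and 957 after FICZ, 333, 464 and 530 after Jag1, 1168, 1232 and 1274 after both and 556 in Jag1 only (log2 fold change 1.49, SE 0.187, adjusted p = 0.000499). Kif11, the motor that pushes the poles apart, measured 155, 179 and 321 without and 982, 1070 and 1144 with FICZ in the Jag1 cultures, 453 and 594 without and 346 and 842 with FICZ in cultures lacking Jag1, and 303 in Jag1 only (log2 fold change 2.36, SE 0.351, adjusted p = 0.00129). Both were non-overlapping in this comparison, with a 5.12-fold rise of Kif11 and a 2.81-fold rise of Tpx2. Dlgap5, a spindle assembly factor, stood at 146 and 209 in TGFβ/IL-34, 331 and 433 after FICZ, 225, 116 and 120 after Jag1, 587, 413 and 455 after both and 184 in Jag1 only (log2 fold change 1.71, SE 0.302, adjusted p = 0.00324). Its value in TGFβ/IL-34/Jag1 replicate 1 was the highest of that group. Prc1, which bundles the central spindle, measured 332, 280 and 488 without and 1081, 877 and 1039 with FICZ in the Jag1 cultures, 506 and 567 without and 549 and 759 with FICZ in cultures lacking Jag1, and 322 in Jag1 only (log2 fold change 1.48, SE 0.233, adjusted p = 0.00173). Kif23, a centralspindlin motor, stood at 279 and 522 in TGFβ/IL-34, 399 and 475 after FICZ, 220, 301 and 374 after Jag1, 648, 770 and 706 after both and 144 in Jag1 only (log2 fold change 1.27, SE 0.274, adjusted p = 0.00919). These 2 had the smallest rises of the cytokinesis genes, and Kif4 and Anln (anillin) the largest, at 7.63- and 7.33-fold (adjusted p = 0.000435 and 0.000629).

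The 6 genes of chromosome structure and Ki-67 all rose as well, over a wide range of sizes. Mki67, which codes for the proliferation antigen Ki-67 (chr7:135291513-135318299), measured 232, 448 and 616 without and 2979, 2802 and 3049 with FICZ in the Jag1 cultures, 1283 and 1521 without and 1308 and 2116 with FICZ in cultures lacking Jag1, and 894 in Jag1 only (log2 fold change 2.88, SE 0.318, adjusted p = 0.00025). Top2a, the topoisomerase that untangles sister chromatids (chr11:98883769-98915062), stood at 1713 and 1993 in TGFβ/IL-34, 3644 and 2674 after FICZ, 541, 731 and 901 after Jag1, 4079, 3684 and 4001 after both and 2192 in Jag1 only (log2 fold change 2.46, SE 0.203, adjusted p = 4.9e-05). For both genes the 2 extreme groups lay apart from all other samples. Smc4, a condensin ATPase, measured 1709, 1377 and 1428 without and 2368, 2332 and 2186 with FICZ in the Jag1 cultures, 1537 and 1600 without and 1564 and 2060 with FICZ in cultures lacking Jag1, and 1949 in Jag1 only, and its 1.53-fold rise was the smallest that passed (log2 fold change 0.61, SE 0.154, adjusted p = 0.0201). Its partner Smc2 rose 5.19-fold and Ncapg, another condensin subunit, 9.03-fold (adjusted p = 0.0191 and 0.00249). Smc4, Smc2 and Knl1 were the called members that lost the call when single libraries were left out, in 5, 4 and 4 of the fits.

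Markers of other cell types moved with this comparison. Of the 11 granulocyte progenitor and neutrophil genes listed, 10 were tested and 8 rose with FICZ in the Jag1 cultures, with a summed level of 213 to 326 in TGFβ/IL-34/Jag1 and 8499 to 13321 in TGFβ/IL-34/Jag1/FICZ. Elane, neutrophil elastase, went from 9.07, 0 and 4.97 to 3050, 3694 and 2094, whereas Mpo, myeloperoxidase, was at 3.93, 3.42 and 12.2 without and 3.82, 4.29 and 3.75 with FICZ. Of 7 stem and progenitor genes 5 rose (sums of 3953 to 4563 and of 13532 to 15538), of 10 mast cell and basophil genes 6 of the 8 tested rose (1847 to 2986 and 10314 to 13767), and of 6 classical monocyte genes 4 of the 5 tested rose (605 to 1175 and 5528 to 6958). Of 9 Langerhans cell genes 5 fell (579857 to 650659 and 154746 to 254308), and Cd207 (langerin) went from 1366, 1784 and 1699 to 8.39, 6.29 and 132. Of 14 stromal genes 3 of the 11 tested rose, namely Thy1, Col5a1 and Pdgfrb. Thy1 was also at 12178 and 3578 in TGFβ/IL-34/FICZ, where Col1a1 was at 0 and 0. Col1a1 was not called and was at 191, 369 and 84.1 without and 222, 625 and 1345 with FICZ, with Dcn and Lum listed at 0 in every sample. Of 7 macrophage genes 4 fell, and 2 of 4 tested lymphocyte genes and 1 of 3 tested erythroid and megakaryocyte genes rose. Some of the markers stood in more than 1 list (Kit and Gata2). The part of these cells in the rise of the mitotic genes was not tested.

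**Figure D3:**
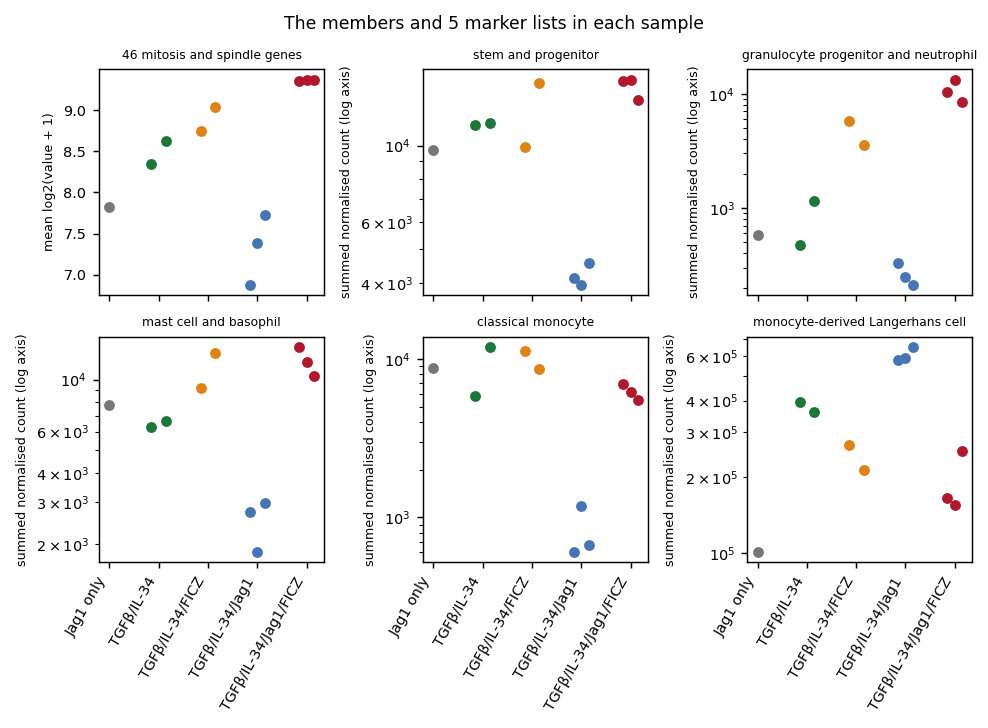
Mean log2(normalized count + 1) of the 46 members and the summed normalized count of 5 marker lists (log axes) in each of the 11 samples, by culture group. Members and progenitor, granulocyte and mast cell lists are low in the 3 TGFβ/IL-34/Jag1 samples, where the Langerhans cell list is highest.

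Jag1 stroma without FICZ was followed by lower levels of these genes. In TGFβ/IL-34/Jag1 against TGFβ/IL-34, 22 of 46 members fell and none rose (limma, adjusted p under 0.05), where 3.96% of all tested genes fell and 2.64% rose. The median log2 fold change of the members was −1.33, beside −0.004 over all tested genes. The 3 Jag1 samples were below both others for 36 of 46 members, against 22.8% of all tested genes. Within the 2 experiment codes that hold both groups, 42 of 46 members were lower with Jag1 in each, with medians of −1.17 and −1.01.

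Of the entry genes 6 of 8 fell, with Foxm1 showing the largest difference of any member (log2 fold change −2.52, SE 0.539, adjusted p = 0.0207). Ccnb1 fell to 0.221 times its level in TGFβ/IL-34 (log2 fold change −2.18, SE 0.464, adjusted p = 0.0207) and Ccna2 to 0.274 times (log2 fold change −1.87, SE 0.378, adjusted p = 0.0162). Spc25 (−2.24), Kif4 (−2.15) and Mki67 (−1.80) were among the others with the largest falls (adjusted p = 0.0152, 0.011 and 0.0142). Cdc20, Bub1b and Ube2c fell among the checkpoint and anaphase genes, Aurkb, Birc5 and Cdca8 in the passenger complex, and Cenpe and Nuf2 also at the kinetochore. The spindle genes Hmmr, Kif2c and Nusap1 fell, as did Ncapd2 and Top2a (log2 fold change −1.38, SE 0.227, adjusted p = 0.00557), and in cytokinesis Kif4 alone. Members that did not pass included Tpx2 (log2 fold change −0.47, SE 0.209, adjusted p = 0.262), Kif11 (log2 fold change −1.32, SE 0.393, adjusted p = 0.0794), Prc1 (log2 fold change −0.59, SE 0.26, adjusted p = 0.255), Kif23 (log2 fold change −0.39, SE 0.306, adjusted p = 0.588), Dlgap5 (log2 fold change −0.26, SE 0.338, adjusted p = 0.778) and Smc4 (log2 fold change −0.07, SE 0.172, adjusted p = 0.906). Incenp, Pttg1 and Cenpa had the only positive differences, at 0.40, 0.46 and 1.53 (adjusted p = 0.302, 0.587 and 0.0743).

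The number of members called lower was 0 without replicate 2 and 6 without replicate 1 of TGFβ/IL-34, 14, 15 and 23 without replicates 1, 2 and 3 of TGFβ/IL-34/Jag1, and 31 without TGFβ/IL-34/FICZ replicate 1 (where 8.51% of all tested genes were lower), with the remaining fits between 11 and 35. Markers moved here too: all 5 tested classical monocyte genes fell (sums of 5869 to 11920 in TGFβ/IL-34 and 605 to 1175 with Jag1), as did 3 of 7 stem and progenitor genes (11506 to 11639 and 3953 to 4563), 4 of 8 tested mast cell and basophil genes (6280 to 6661 and 1847 to 2986) and 2 of 10 tested granulocyte genes (476 to 1149 and 213 to 326), while 6 of 11 tested stromal genes rose and 1 fell, 3 of 7 macrophage genes rose and 2 fell, 1 of 9 Langerhans cell genes rose, 1 of 3 tested erythroid and megakaryocyte genes fell, and none of 4 tested lymphocyte genes was called. Their part in the result was not tested. The upper count of 35 members came with sample weights, where 10.7% of all tested genes were lower.

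**Figure D4:**
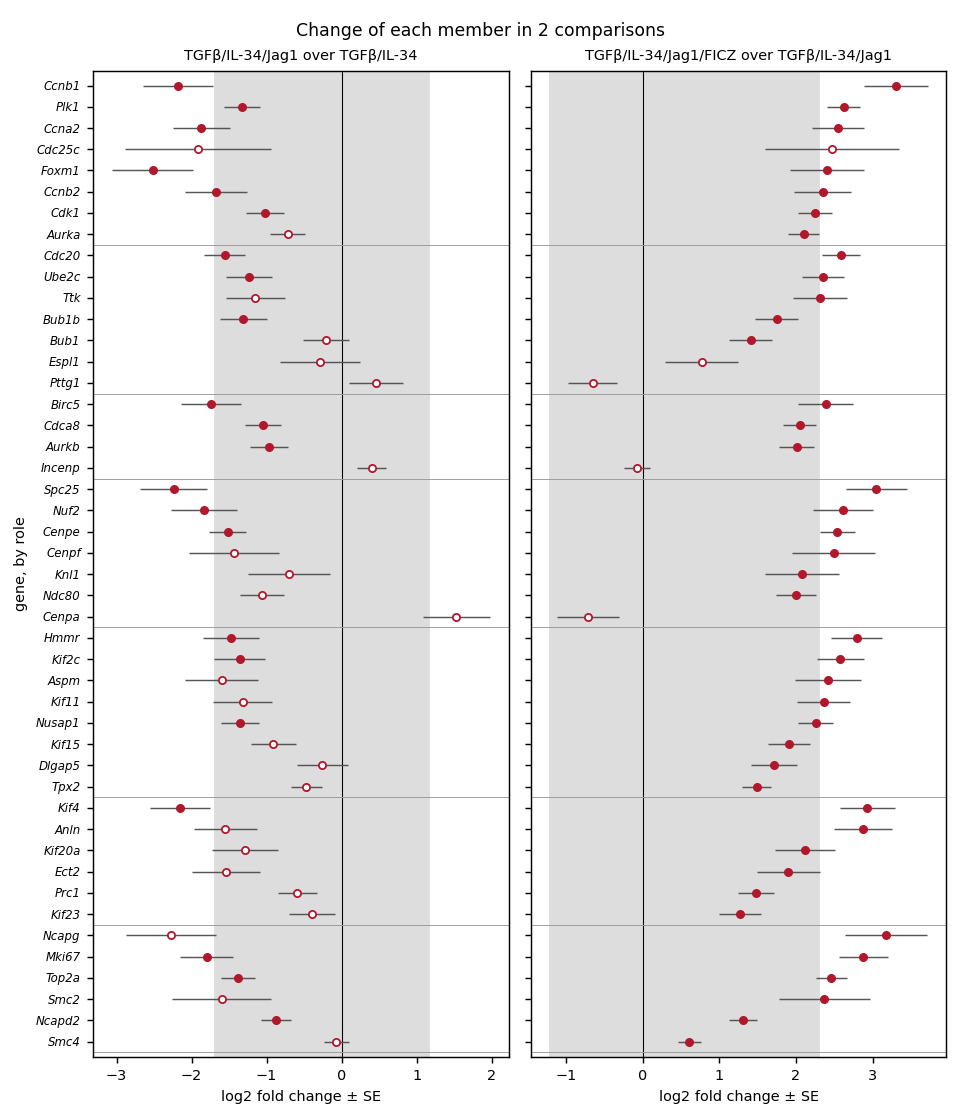
Log2 fold change (point) and SE (line) of each member, by role, for Jag1 without FICZ (left) and for FICZ with Jag1 (right), on log2(normalized count + 1). Filled points passed an adjusted p of 0.05, and the gray band spans the 5th to 95th percentile of all 13095 tested genes. Both comparisons share the 3 TGFβ/IL-34/Jag1 samples.

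The remaining comparisons were smaller. For FICZ without Jag1, limma called none of the members and 3 of all tested genes (0.0229%). The median of the members was 0.47, beside −0.020 over all genes, and Aurka (Aurora A kinase), at 204 and 245 in TGFβ/IL-34 and 472 and 440 in TGFβ/IL-34/FICZ, had an adjusted p of 0.26. Both FICZ samples were above both others for 23 of 46 members, where 22.6% of all tested genes did the same, and replicate 2 alone was above both for 39 members and 37.9% of all tested genes. In the 1 experiment code that holds both groups, with 1 sample of each, 43 members were higher with FICZ, with a median of 0.76. Without a share of all tested genes, that count does not set the members apart from other genes. Leaving out TGFβ/IL-34/FICZ replicate 2 gave 10 higher and 3 lower members in a fit that called 21.6% of all tested genes higher and 22.3% lower, so the members' share was near or below that of all genes. Leaving out replicate 1 gave none. With 2 samples in each group, the SE of the log2 difference ran up to 1.07, for Cdc25c, and the differences ran from −0.97 for Foxm1 to 1.11 for Dlgap5.

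With Jag1 and FICZ together against neither, 9 members were higher and none lower (limma), with 3.12% of all tested genes higher. The 9 were Aurka (1.38), Cdk1 (1.23) and Plk1 (1.29) of the entry genes, Aurkb (1.04) and Cdca8 (0.99) of the passenger complex, Dlgap5 (1.45) and Tpx2 (1.03) of the spindle, Cenpe (1.03) and Top2a (1.08), as log2 fold changes, with adjusted p from 0.0103 to 0.0479. The median was 0.92, beside 0.005 over all genes. All 3 samples with both signals were above both TGFβ/IL-34 samples for 40 of 46 members, against 28.8% of all tested genes. Within the 2 experiment codes that hold both groups, 45 and 41 members were higher, with medians of 1.06 and 0.85. Pttg1 (−0.19) and Foxm1 (−0.11) had the only negative differences (adjusted p = 0.868 and 0.954). The count was 0 or 1 without any 1 library of the comparison (0 without either TGFβ/IL-34 replicate or without replicate 2 of the group with both signals, 1 without its replicates 1 or 3) and 22 without TGFβ/IL-34/FICZ replicate 1, where 7.97% of all tested genes were higher.

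For Jag1 added to FICZ cultures limma called no member, with 1.41% of all tested genes higher. The members' median was 0.42, beside 0.047 over all genes. All samples with both signals were above both TGFβ/IL-34/FICZ samples for 29 of 46 members, against 19.6% of all tested genes, and above replicate 2 of it alone for 38 members and 34.5% of all tested genes. Within the 2 shared experiment codes, 35 and 43 members were higher, with medians of 0.63 and 0.37, again without a share of all tested genes. Without TGFβ/IL-34/FICZ replicate 2, 14 members were called higher and 1 lower, where 23.7% of all tested genes were called higher and 20.9% lower. Scaling samples to equal totals moved the median over all genes to −0.196 for FICZ without Jag1 and to 0.209 for Jag1 with FICZ, and the members' medians to 0.29 and 0.58, still above those of all genes. The genes called for FICZ without Jag1 then numbered 1 higher and 0 lower, in place of 2 and 1.

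The effect of FICZ differed with and without Jag1 for 7 members by the test of the interaction (limma, adjusted p under 0.05), all with the larger effect in the Jag1 cultures, as for 1.17% of all tested genes. They were Anln, Kif4, Mki67, Cenpe, Plk1, Nusap1 and Top2a, with log2 differences of 2.96 (SE 0.598), 2.92 (0.567), 2.62 (0.503), 2.06 (0.355), 2.02 (0.338), 1.74 (0.36) and 1.71 (0.32) and adjusted p from 0.0318 to 0.0478. The median over the members was 1.74, beside 0.067 over all genes, and with equal totals these were 2.00 and 0.321. Foxm1 had the largest difference, 3.38, but its SE of 0.763 left it at an adjusted p of 0.0654. Cenpa (−1.69) and Pttg1 (−1.39) pointed the other way (adjusted p = 0.21 and 0.204). With the experiment code as a block, or with sample weights, none of the 7 was called. The number of members called also changed with single libraries. It was 4 without TGFβ/IL-34/FICZ replicate 1, 33 higher and 3 lower without replicate 2 of that group (a fit that called 22.6% of all tested genes higher and 19.5% lower), 3, 2 and 6 without replicates 1, 2 and 3 of TGFβ/IL-34/Jag1, and 0 without any 1 library of TGFβ/IL-34 or TGFβ/IL-34/Jag1/FICZ.

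The Jag1 only sample, without TGFβ and IL-34, has no replicate and was not tested. It lay within the range of the other 10 samples for 43 of 46 members and below it for Espl1, Incenp and Kif23. No share of all tested genes is given for this placement, so it does not set the members apart from other genes. The sample was above all 3 TGFβ/IL-34/Jag1 samples for 23 members (37.9% of all tested genes), below both TGFβ/IL-34 samples for 37 (44.8%) and below all 3 TGFβ/IL-34/Jag1/FICZ samples for 44 (38.4%). Top2a at 2192 was above both TGFβ/IL-34 values, and Mki67 at 894 below both.

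The other cell cycle genes were read from lists that name no member. Of 56 other mitotic genes, 45 rose with FICZ in the Jag1 cultures and none fell, with a median of 1.75, and 17 fell and none rose with Jag1 alone, with a median of −0.95. Troap, Cit, Pbk and Sgo1 rose the most, by 3.32, 3.30, 3.29 and 3.25 on the log2 scale. Of 38 genes of DNA replication and S phase, 27 rose and 1 fell with FICZ (median 1.38), and 8 fell with Jag1 alone (median −0.82). Rrm2, a subunit of the enzyme that makes deoxyribonucleotides, was at 56.6, 242 and 213 without and 1012, 1456 and 1345 with FICZ (log2 fold change 3.12, SE 0.5, adjusted p = 0.00188), and Mcm5 of the replicative helicase rose by 2.66 (adjusted p = 0.00131). E2f2 was the gene that fell (−0.83, adjusted p = 0.0454). The groups of Rrm2 did not overlap, like those of most members.

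Fewer regulators of the cycle were called. Of 17 subunits and regulators of the anaphase-promoting complex, 1 rose with FICZ in the Jag1 cultures, the inhibitor Fbxo5 (1.29, adjusted p = 0.0103), and none was called with Jag1 alone. Of 17 DREAM, MuvB and pocket protein regulators, 4 rose with FICZ: Mybl2, E2f8, E2f7 and Lin9. Mybl2, the B-Myb activator of late genes, was at 149, 165 and 138 without and 808, 984 and 778 with FICZ (2.50, SE 0.203, adjusted p = 4.68e-05), and was also the list's single call with Jag1 alone (−0.91, adjusted p = 0.0402). Of 6 G1 cyclins and kinases 2 rose with FICZ, Cdk6 (0.92, adjusted p = 0.00895) and Ccnd2 (0.88, adjusted p = 0.0266), whereas Ccnd1, chosen after its values were seen, was at 418, 1188 and 1522 without and 246, 282 and 608 with FICZ (−1.38, adjusted p = 0.119). Of 7 tested CDK inhibitors 1 rose, Cdkn2b (2.25, adjusted p = 0.00243), from 18.2, 44.8 and 20.7 to 118, 172 and 99.3. Cdkn1a (p21), also chosen after its values were seen, was at 31282, 23962 and 22465 without and 19438, 17897 and 19190 with FICZ (−0.44, adjusted p = 0.177), and no inhibitor was called with Jag1 alone.

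**Figure D5:**
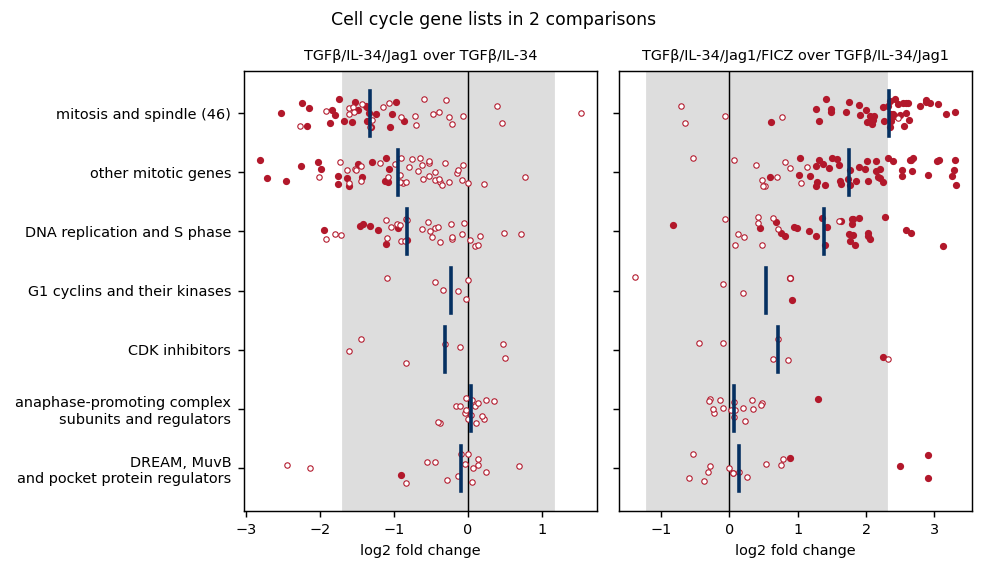
Log2 fold change of each gene (point, filled where the adjusted p was under 0.05) in the members and 6 other cell cycle lists, with the list median (blue bar), for Jag1 without FICZ (left) and FICZ with Jag1 (right). The gray band spans the 5th to 95th percentile and the black line the median of all 13095 tested genes, and the mitotic and replication lists are shifted from it while the anaphase-promoting complex list is not.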

How the data were processed

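RNA from 11 sorted mouse samples was sequenced. The deposited table holds normalized counts, which are treated as signal values because the authors had already scaled them. According to the methods, the authors quantified reads with salmon against Ensembl GRCm39 transcripts, summarized them per gene with tximport and scaled them with DESeq2, with versions not given in the sources used here. Read depth per sample is therefore unknown, and no counting interval is given. All value columns matched a sample (0 did not).

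Values were analyzed as log2(value + 1) with limma 3.58.1 in R 4.3.3 (1 mean per group, all 11 samples, moderated variance with a trend, two-sided, Benjamini-Hochberg adjustment over 13095 genes with at least 10 in at least 2 samples, threshold 0.05). A fold change on this scale understates the change of genes with low values. All 46 members passed the filter. The code was run on simulated data with the same dispersion for all genes and no batches, for every comparison but the interaction. That run does not cover differences between libraries such as those seen here. The study used DESeq2 on counts, which the deposited values do not allow.

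Values in every sample were given for the 2 members of each role with the highest mean, the members with the largest and smallest change of each comparison with a called member, and Mki67, Top2a, Cdk1, Ccnb1, Plk1 and Foxm1. From each other list up to 4 called genes with the largest change were named. The members, lists and rules were chosen with earlier results of these data known.

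Replicates with the same number in the 2 groups with TGFβ, IL-34 and Jag1 carry the same experiment code, and by this code the numbers pair these samples. Their deviations from the group means correlated at 0.1531, 0.1219 and 0.1659 across 13095 genes. Those of the 2 FICZ groups, which also share codes, correlated at 0.0591 and 0.0578, and the other groups were not treated as paired. Between TGFβ/IL-34 and TGFβ/IL-34/Jag1, where the same numbers carry unlike codes, the values were 0.0475 and 0.0417. Samples with unlike numbers were not correlated, so these values do not settle the pairing. The experiment code of TGFβ/IL-34 replicate 1 differs between the deposited sample sheet and its label, and the label was used. Alternatives were other pseudocounts (0.5 and 4), no filter, a filter at 50, quantile normalization, only the groups compared, replicate and experiment code blocks, sample weights and leaving out each replicate. Scaling to equal totals, a flow cell block, leaving TGFβ/IL-34/FICZ replicate 1 out of the other comparisons and of the counts over groups, and sums without some members were chosen after seeing the data.

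Positions came from the GENCODE vM39 annotation of GRCm39, and promoter windows from a RefSeq table of GRCm38.p6, whose coordinates were not converted.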

Additional observations from a re-analysis of the deposited data

Results flagged for a closer look

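The response to FICZ differed between cultures with and without Jag1 for 7 members, by the test of the interaction in limma. The differences in log2 fold change, with the larger response in the Jag1 cultures each time, were 2.96 for Anln (SE 0.598, adjusted p = 0.0444), 2.92 for Kif4 (SE 0.567, adjusted p = 0.043), 2.62 for Mki67 (SE 0.503, adjusted p = 0.043), 2.06 for Cenpe (SE 0.355, adjusted p = 0.0353), 2.02 for Plk1 (SE 0.338, adjusted p = 0.0318), 1.74 for Nusap1 (SE 0.36, adjusted p = 0.0478) and 1.71 for Top2a (SE 0.32, adjusted p = 0.0424). Each of the 7 rests on 2 or 3 samples in each of 4 groups, and none was called under all alternatives. No group had 4 or more samples, so single samples were not examined for their distance from the rest.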

How the results depend on the processing

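FICZ with Jag1 kept 38 to 42 members called higher under all alternatives, and 38 of the 41 were called under every one. Pttg1 was called lower (1 member) with only the groups compared, with sample weights and without TGFβ/IL-34/FICZ replicate 1. Leave-one-out counts lower ran from 0 to 1. The replicate block gave 41 higher there, 21 lower and 1 higher for Jag1 without FICZ, 4 higher for both signals against neither and 9 for the interaction. In TGFβ/IL-34 the replicate numbers carry other experiment codes than in the other groups. In comparisons with that group the replicate block therefore does not pair samples of the same experiment. For Jag1 without FICZ, the 22 members lower became 11 with no filter, 12 with only the groups compared, 11 with the experiment code block, 35 with sample weights and 0 to 31 leaving out 1 library. Cenpa (1 member) was called higher with the replicate, experiment code and flow cell blocks and with sample weights, and leave-one-out counts higher ran from 0 to 1. For both signals against neither, the 9 became 5 with no filter, 14 with quantile normalization, 37 with only the groups compared, 35 with sample weights and 0 to 22 leaving out 1 library. For the interaction, the 7 became 2 with no filter, 0 with the experiment code block, 0 with sample weights, and leaving out 1 library 0 to 33 higher and 0 to 3 lower. FICZ without Jag1 ran from 0 to 10 higher and 0 to 3 lower, and Jag1 with FICZ from 0 to 14 higher and 0 to 1 lower, where the upper ends came without TGFβ/IL-34/FICZ replicate 2, in fits that called 21.6% and 22.3%, and 23.7% and 20.9%, of all tested genes higher and lower. The cause was not tested. A group left with 1 sample is assumed to vary like the others. The share of all tested genes called moved with these counts. For both signals against neither, 3.12% were higher in the main fit and 2.12% with no filter. The share was 3.32% with quantile normalization, 13% with only the groups compared and 15.3% with sample weights. For Jag1 without FICZ, 3.96% were lower in the main fit, 2.58% with no filter and 10.7% with sample weights.

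The sign turned for Espl1 with Jag1 alone (from −0.68 to 0.11 leaving out 1 library), for Kif23 with Jag1 alone (−0.84 to 0.06) and for Incenp with FICZ and Jag1 (−0.15 to 0.02, and 0.01 with equal totals), and none of these had passed. The summed count ratio of TGFβ/IL-34/Jag1/FICZ over TGFβ/IL-34/Jag1 was 4.12 from the mean of log2 values, 3.32 without Cenpa and 3.95 without Cenpa, Incenp, Smc4 and Top2a. That of TGFβ/IL-34/Jag1 over TGFβ/IL-34, 0.717, became 0.447, 0.544 and 0.467. Without read counts the depth behind low values is unknown, and groups of 2 and 3 samples limit each comparison.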
